A study of Mus musculus with 45 samples.

Results

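YEJG-M1 and YEJG-M2, 2 tumour cell lines recovered from mouse lung, were compared with YEJG, the parental mammary tumour line from which they descend. The comparison holds 9 of the 45 RNA-seq libraries and 3 of the 15 lines of the series, chosen by sample title: 3 libraries of YEJG, 3 of YEJG-M1 and 3 of YEJG-M2. The series profiled PyMT+ mouse cell lines, whose tumours are driven by the polyomavirus middle T antigen, and set lines from fat-pad tumours beside lines grown from lung micrometastases. According to the study's methods the lung lines arose from micrometastases found after the primary tumour had been resected, whereas the labels call both YEJG lung lines "whole lung" and YEJG a primary tumour of the mammary gland. YEJG-FP, a line from a fat-pad tumour of YEJG, and YEJH, a second parental line with 5 lung lines of its own, are used below for comparison. No treatment was given, and the cells were cultured before RNA was taken. Each origin is represented by 1 parental line, and the 3 libraries of a line are technical repeats. The p-values below therefore measure the spread between libraries, and no age, sex or strain is stated in the labels for these lines.

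The 9 libraries held between 11578293 and 16399035 reads on genes. The libraries of a line varied with a coefficient of variation of 8.21% once counting noise and differences between library runs were set aside. The library run (A or B) was read from the prefix of the library name, and the labels do not say what that prefix stands for. It differed among the libraries of each line and entered the main fits as a term. The library of YEJG-M1 replicate 1 carries another line's name in its library name. Its title places it in YEJG-M1, and its values for Cdh1, Vim and Hexa, given below, lay with those of the other 2 libraries of that line. The labelled cell type was checked against marker lists. Of the 10 markers of mammary tumour epithelium, all were present in all 3 lines, with summed levels of 9060 to 10400 CPM (read counts scaled to library size) in YEJG, 3640 to 4100 in YEJG-M1 and 3530 to 4060 in YEJG-M2. Markers of whole lung were sparse. The 12 markers of lung epithelium summed to 17.2 to 28.4 CPM in YEJG, 2.08 to 3.24 in YEJG-M1 and 14.4 to 16 in YEJG-M2, with 7 of them, the surfactant protein genes among these, at 0 reads in all 9 libraries. Leukocyte markers summed to 3.53 to 4.69 CPM in YEJG, 4.5 to 6.48 in YEJG-M1 and 9.2 to 11 in YEJG-M2, with 7 of 16 at 0 reads. Endothelial markers summed to 3.4 to 4.52, 5.51 to 6.08 and 5.36 to 6.47 CPM, and no library held more than 0.196 CPM of adipocyte markers.

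Mammary carcinoma cells that keep an epithelial state are joined by adherens junctions, tight junctions and desmosomes and are filled with keratin filaments. In the epithelial-mesenchymal transition, transcription factors of the ZEB, SNAI and TWIST families repress junction genes through E-box sequences in their promoters, while vimentin, N-cadherin and matrix genes are expressed. Tumour cells also differ in how much they display on MHC class I molecules, which carry peptides cut by the proteasome and pumped into the endoplasmic reticulum by the TAP transporter to the cell surface for inspection by CD8+ T cells.

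In both lung lines a broad set of genes stood apart from YEJG. Of 13394 genes tested with edgeR's quasi-likelihood test, 6457 (48.2%) passed an adjusted p of 0.05 in YEJG-M1, of which 3460 (25.8%) were higher and 2997 (22.4%) lower. In YEJG-M2 5188 genes (38.7%) passed, 2789 (20.8%) higher and 2399 (17.9%) lower. A gene is called shared where it passed in both lines in the same direction. There were 4558 shared genes (34.0%), 2456 higher (18.3%) and 2102 lower (15.7%), and 41 genes passed in both lines with opposite signs. For the mean of both lung lines 6426 genes (48.0%) passed, 3409 (25.5%) higher and 3017 (22.5%) lower. All 6 lung-line libraries lay above all 3 YEJG libraries in CPM for 2891 genes (21.6%) and below them for 2467 (18.4%). Since both comparisons use the same 3 YEJG libraries, a chance deviation of YEJG enters both. A difference of at least 2-fold in each line was reached by 947 shared genes that rose (7.07%) and 668 that fell (4.99%). A difference of at least 10-fold was reached by 289 (2.16%) and 75 (0.560%). When the counts were summed per line, so that each line counted once and the spread came from the YEJH-derived lines, 2885 shared genes were called, 1466 higher and 1419 lower. In bulk RNA, fewer cells of a type and less RNA per cell cannot be told apart.

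Below, "rose" and "fell" are used of shared genes. Values are CPM, given for replicates 1, 2 and 3 in that order or as mean ± SD of the 3 libraries, and log2 fold changes are given ± SE, YEJG-M1 first and YEJG-M2 second. The median log2 fold change over all genes tested was 0.0278 in YEJG-M1 and 0.0263 in YEJG-M2. The list shares are read against the 18.3% and 15.7% of all genes that rose and fell. These are shares of the main fit. List counts from the fit with counts summed per line are read beside its 1466 higher and 1419 lower shared genes.

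**Figure D1:**
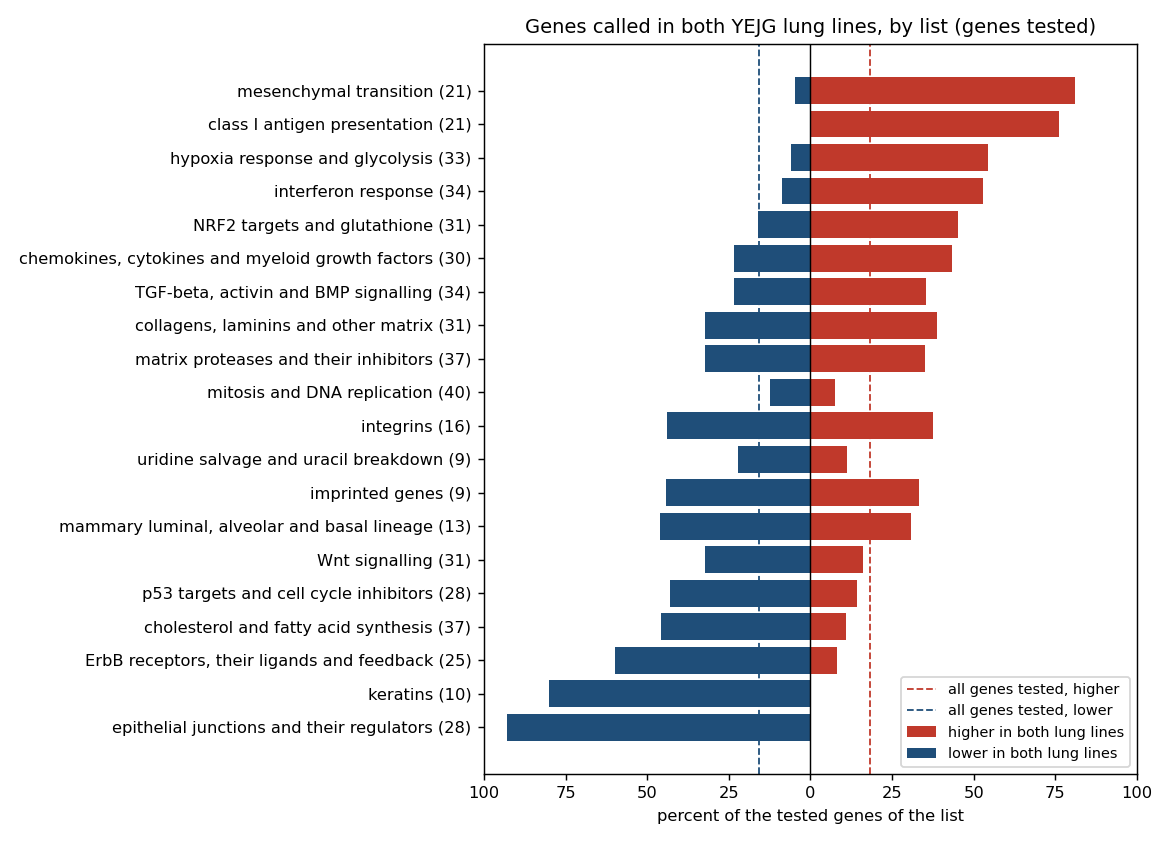
Percent of the tested genes of each list that rose (red, to the right) or fell (blue, to the left) in both YEJG-M1 and YEJG-M2 against YEJG, with the number tested in brackets and dashed lines at 18.3% and 15.7%, the shares over all 13394 genes; the Hox list, with 2 genes tested, is not drawn. The mesenchymal list lies farthest to the right with 17 of 21 genes higher, and the epithelial junction list farthest to the left with 26 of 28 genes lower.

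The genes with the largest rises were close to silent in YEJG and clearly read in both lung lines. Hexa, which encodes the alpha subunit of the lysosomal enzyme beta-hexosaminidase, had 0 reads in each YEJG library. Its levels were 25.6, 25.1 and 22.3 CPM in YEJG-M1 and 22.3, 22.2 and 24.6 CPM in YEJG-M2. Taking 3 reads over the 3 YEJG libraries as the limit that a count of 0 allows, Hexa was at least 303-fold higher in YEJG-M1 and at least 288-fold higher in YEJG-M2. The gene lies at chr9:59446818-59474021 on the plus strand of GRCm39. Ddr2, a receptor tyrosine kinase that binds fibrillar collagen, stood at 0.084, 0.323 and 0.378 CPM in YEJG. It was read at 151, 186 and 172 CPM in YEJG-M1 and at 94.1, 106 and 111 CPM in YEJG-M2 (9.27 ± 0.16 and 8.49 ± 0.17). No library of either lung line came near the YEJG libraries, but with counts summed per line the adjusted p of Ddr2 was 0.0673 and 0.106. The 5 lung lines of YEJH origin ranged from 0.323 to 107 CPM for this gene.

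Gsdmd, the pore-forming protein of pyroptosis, rose from 0.084, 0.162 and 0.151 CPM to 67.9, 63.9 and 59.4 in YEJG-M1 and 71.6, 71.1 and 83.0 in YEJG-M2 (8.80 ± 0.18 and 9.03 ± 0.19). Nqo1, a quinone reductase, rose from 0.336, 0.404 and 0.831 CPM to 149, 136 and 180 in YEJG-M1 and 122, 118 and 145 in YEJG-M2 (8.16 ± 0.22 and 7.92 ± 0.23). The remaining genes of this group were Tspan15, Glipr1, Prune2, Zcchc24, Pdgfrb, Chst1, Angpt1 and Psmb8. Pdgfrb, a receptor for platelet-derived growth factor, had 0, 0.0808 and 0.0756 CPM in YEJG against 20.7 ± 1.53 in YEJG-M1 and 74.1 ± 10.3 in YEJG-M2. Tspan15, a tetraspanin partner of the sheddase ADAM10, had 0.0521 ± 0.0452 CPM in YEJG, 45.3 ± 5.03 in YEJG-M1 and 36.3 ± 2.0 in YEJG-M2. In Prune2 the 3 lines held 0.190 ± 0.0992, 75.8 ± 5.67 and 42.6 ± 4.22 CPM. Angpt1, a ligand of the endothelial receptor TIE2, varied more between libraries, at 22.2, 41.5 and 40.8 CPM in YEJG-M1 and 17.5, 19 and 28.1 in YEJG-M2, and still lay far above the highest YEJG library at 0.378.

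**Figure D2:**
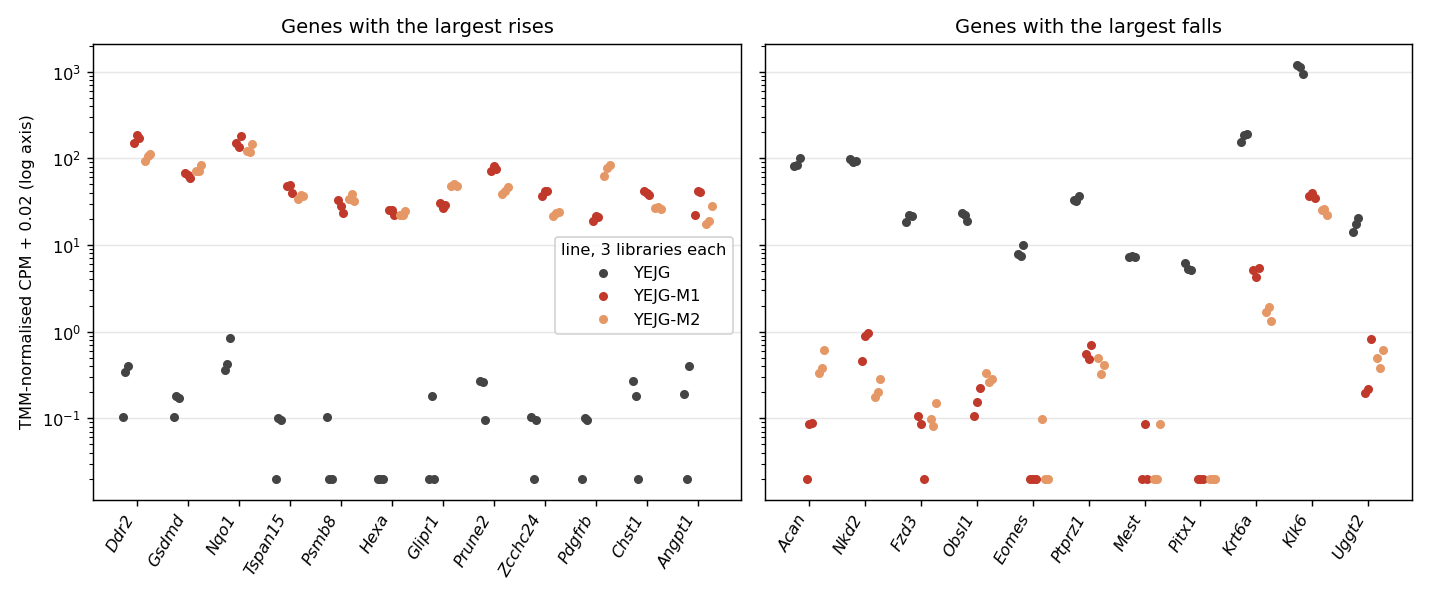
Level of each library (points, 3 per line) of YEJG, YEJG-M1 and YEJG-M2 for 12 genes with the largest rises and 11 with the largest falls shared by both lung lines, as TMM-normalised CPM plus 0.02 on a log axis. Points at 0.02 are libraries with 0 reads, such as all 3 YEJG libraries of Hexa and all 6 lung-line libraries of Pitx1.

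The largest falls included a protease, a keratin, a matrix proteoglycan and developmental regulators. Klk6, a secreted serine protease of the kallikrein family, stood at 1201, 1126 and 940 CPM in YEJG. It fell to 36.9, 40.1 and 35.0 CPM in YEJG-M1 and to 25, 26.3 and 22 in YEJG-M2 (-4.87 ± 0.11 and -5.50 ± 0.12). Acan, the cartilage proteoglycan aggrecan, had 81.5, 83.9 and 101 CPM in YEJG, at most 0.0672 CPM in YEJG-M1 and at most 0.589 CPM in YEJG-M2. As for Ddr2, its call was lost with counts summed per line (adjusted p 0.0772 and 0.121). Nkd2, an inhibitor of Wnt signalling that binds Dishevelled, fell from 93.5 ± 3.65 CPM to 0.746 ± 0.270 and 0.200 ± 0.0544 (-6.90 ± 0.14 and -8.77 ± 0.17).

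Fzd3, a Frizzled receptor for Wnt ligands, fell from 18.3, 22.4 and 21.5 CPM to at most 0.0876 CPM in YEJG-M1 and 0.131 in YEJG-M2. Ptprz1, a receptor tyrosine phosphatase, fell from 33.7 ± 2.30 CPM to 0.553 ± 0.107 and 0.389 ± 0.0852. Pitx1, a homeobox factor of hindlimb and pituitary development, was read at 6.14, 5.25 and 5.06 CPM in YEJG and had 0 reads in all 6 lung-line libraries, so that it was at least 75.5-fold lower in YEJG-M1 and at least 81.0-fold lower in YEJG-M2. Eomes, a T-box factor, had 7.82, 7.51 and 9.90 CPM in YEJG, 0 reads in YEJG-M1 (at least 117-fold lower) and a single read in YEJG-M2. Mest, an imprinted gene that is expressed from the paternal copy, was read at 7.31, 7.51 and 7.33 CPM in YEJG and in 1 library of each lung line, at 0.0661 and 0.0654 CPM. Obsl1, a cytoskeletal adaptor, fell from 21.5 ± 2.32 CPM to 0.140 ± 0.0574 and 0.273 ± 0.0379. Uggt2, a paralogue of the folding sensor of the endoplasmic reticulum, fell from 17.2 ± 3.03 CPM to 0.393 ± 0.358 and 0.475 ± 0.113.

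Genes that hold epithelial cells together fell almost as a block. Of 28 tested genes of junctions and their regulators, 26 fell and 0 rose (92.9% against 15.7% of all genes), with a median log2 fold change of -1.99 in YEJG-M1 and -1.45 in YEJG-M2. In the fit with counts summed per line 24 of the 28 fell. Cdh1, which encodes E-cadherin, stood at 357, 316 and 317 CPM in YEJG. It was read at 62.8, 63.5 and 60.6 CPM in YEJG-M1 and at 103, 110 and 102 CPM in YEJG-M2 (-2.41 ± 0.07 and -1.65 ± 0.07). Epcam, a surface adhesion molecule of epithelia, fell from 677, 728 and 666 CPM to 124, 137 and 128 in YEJG-M1 and 205, 207 and 190 in YEJG-M2 (-2.41 ± 0.06 and -1.80 ± 0.06). For Cdh1 and Epcam alike, YEJG-M2 lay between YEJG and YEJG-M1, and the difference between the lung lines passed the test (adjusted p 5.61e-05 and 0.000107). The tight junction claudin Cldn7 fell from 147, 146 and 137 CPM to 17.5, 17.3 and 16.8 in YEJG-M1 and 21.4, 19.4 and 17.9 in YEJG-M2, and the desmosomal cadherin Dsg2 from 25.4 ± 2.22 CPM to 3.37 ± 0.209 and 3.47 ± 0.408. Occludin (Ocln) fell from 66.5 ± 4.49 CPM to 13.4 ± 1.16 and 21.2 ± 3.78. The regulators of the epithelial state moved with the junctions. Esrp1, which sets epithelial splicing, fell from 168 ± 5.69 CPM to 33.6 ± 1.05 and 52.3 ± 2.62, and Grhl2, a transcription factor that activates junction genes, from 115 ± 3.02 CPM to 27.0 ± 1.83 and 35.4 ± 1.05. The other 2 genes did not pass in both lines. Tjp1, the scaffold ZO-1, had log2 fold changes of -0.04 ± 0.07 and 0.12 ± 0.07, and the desmosomal Pkp2 of -0.30 ± 0.06 and 0.03 ± 0.06.

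The promoters of these genes were searched for the E-box that ZEB and SNAI factors bind. RefSeq sequence of the 250 bases before the start site (GRCm38.p6) was at hand for 15 of the 26 genes that fell, and 7 of the 15 (46.7%) held CACCTG or its reverse complement CAGGTG, against 5252 of all 27025 genes in the table (19.4%), a gene with several start sites counting once. The 3 promoters below hold 2 copies each and belong to genes whose values are given above. Each is printed 5′ to 3′ on the strand of the gene and ends at the base before the start site, and the capitals mark the E-boxes. Epcam lies on the plus strand (chr17:87635729-87635978), with copies starting 187 and 19 bases before the start. Cldn7 lies on the plus strand (chr11:69965171-69965420), with copies at 97 and 57 bases. Ocln lies on the minus strand (chr13:100552499-100552748), with copies at 213 and 68 bases.
Epcam: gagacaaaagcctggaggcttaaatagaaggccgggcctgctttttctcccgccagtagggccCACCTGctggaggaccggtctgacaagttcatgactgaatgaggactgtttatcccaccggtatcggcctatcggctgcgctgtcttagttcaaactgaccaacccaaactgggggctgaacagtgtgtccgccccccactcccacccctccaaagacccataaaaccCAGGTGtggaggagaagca
Cldn7: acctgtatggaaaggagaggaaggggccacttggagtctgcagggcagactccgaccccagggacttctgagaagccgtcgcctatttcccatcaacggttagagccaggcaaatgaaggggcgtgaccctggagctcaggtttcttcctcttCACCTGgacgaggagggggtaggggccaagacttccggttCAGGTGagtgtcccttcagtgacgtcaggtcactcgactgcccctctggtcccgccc
Ocln: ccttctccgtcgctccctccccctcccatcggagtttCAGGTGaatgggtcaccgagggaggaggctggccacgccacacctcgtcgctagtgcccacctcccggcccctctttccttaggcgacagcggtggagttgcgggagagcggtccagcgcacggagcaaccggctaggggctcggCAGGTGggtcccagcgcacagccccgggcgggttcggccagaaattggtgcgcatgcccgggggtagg
Binding was not measured here, and a match to these letters describes the sequence only. Here and in the promoter searches below, only list members that moved in the stated direction were searched. The 27025 genes were not limited to those tested for expression.

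Most keratins fell as well: 8 of 10 tested fell and 0 rose, with medians of -1.68 and -1.44, and the same number fell with counts summed per line. Krt14, the basal cell keratin, fell from 1334, 1433 and 1352 CPM to 144, 148 and 160 in YEJG-M1 and 127, 132 and 138 in YEJG-M2 (-3.19 ± 0.06 and -3.39 ± 0.07). Krt6a fell from 154, 185 and 188 CPM to 4.92 ± 0.556 and 1.61 ± 0.287, although its near-identical relatives can share its reads. Krt19 fell from 138 ± 7.04 CPM to 14.4 ± 1.12 and 15.2 ± 0.861. The luminal pair Krt8 and Krt18 changed less, with log2 fold changes of -0.80 ± 0.07 and -1.06 ± 0.08 for Krt8 and of -0.71 ± 0.07 and -0.89 ± 0.07 for Krt18. Both remained abundant in the lung lines, with Krt8 at 1770 ± 229 CPM in YEJG-M1 and 1380 ± 180 in YEJG-M2. Krt10 was the exception in direction, at 0.760 ± 0.437, 1.71 ± 0.284 and 1.24 ± 0.462 CPM, and passed in YEJG-M1 alone (1.17 ± 0.41, adjusted p 0.0351, against 0.75 ± 0.45, adjusted p 0.219), a difference between the lines that did not itself pass (adjusted p 0.577).

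Most genes of the mesenchymal state rose. Of 21 tested, 17 rose and 1 fell (81.0% against 18.3% of all genes), with medians of 1.85 and 2.88. Vim, the intermediate filament vimentin, stood at 274, 253 and 192 CPM in YEJG. It was read at 4447, 4401 and 3887 CPM in YEJG-M1 and at 2738, 3174 and 2856 CPM in YEJG-M2 (4.15 ± 0.13 and 3.57 ± 0.13). Zeb1, the E-box repressor named above, rose from 2.35, 1.94 and 1.89 CPM to 49.1, 52.2 and 56.0 in YEJG-M1 and 50.0, 53.1 and 56.5 in YEJG-M2 (4.67 ± 0.11 and 4.67 ± 0.12). The lung lines lay within the spread of their libraries for Zeb1 (adjusted p 0.99 between them), and its relative Zeb2 rose from 3.85 ± 0.314 CPM to 43.7 ± 7.96 and 36.3 ± 2.09. Sparc, a secreted glycoprotein that binds collagen, rose from 7.65, 6.62 and 6.80 CPM to 555, 586 and 510 in YEJG-M1 and 332, 403 and 380 in YEJG-M2 (6.29 ± 0.09 and 5.67 ± 0.09). The homeobox factor Prrx1 had 0 reads in YEJG and 5.75 ± 0.270 and 5.79 ± 1.46 CPM in the lung lines, at least 72.1-fold and 72.2-fold higher. Acta2, smooth muscle actin, also had 0 reads in YEJG, against 1.43 ± 0.314 and 6.55 ± 1.36 CPM, at least 17.8-fold and 82.9-fold higher. Tagln (transgelin), another smooth muscle gene, rose from 0.215 ± 0.234 CPM to 4.33 ± 1.63 and 6.05 ± 1.74. Cdh2 (N-cadherin) rose from 44.5, 44.2 and 49.1 CPM to 128 ± 6.4 and 124 ± 4.74, and Twist1 from 18.1 ± 1.91 CPM to 31.3 ± 2.26 and 29.5 ± 1.30. Snai1 passed in YEJG-M1 (1.13 ± 0.15) and not in YEJG-M2 (-0.36 ± 0.17, adjusted p 0.13), and the lung lines differed (adjusted p 0.000123). Tgfbi, a matrix protein induced by TGF-beta, was higher in YEJG-M1 (1.14 ± 0.17) and lower in YEJG-M2 (-2.27 ± 0.25). Cd44, the hyaluronan receptor, was the member that fell, from 917, 778 and 683 CPM to 275 ± 28.4 and 284 ± 37.7. When lines were the unit, with counts summed, 10 of the 21 rose, and the genes that dropped out included Cdh2 (adjusted p 0.0786 and 0.101) and Prrx1 (0.0495 and 0.0604).

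**Figure D3:**
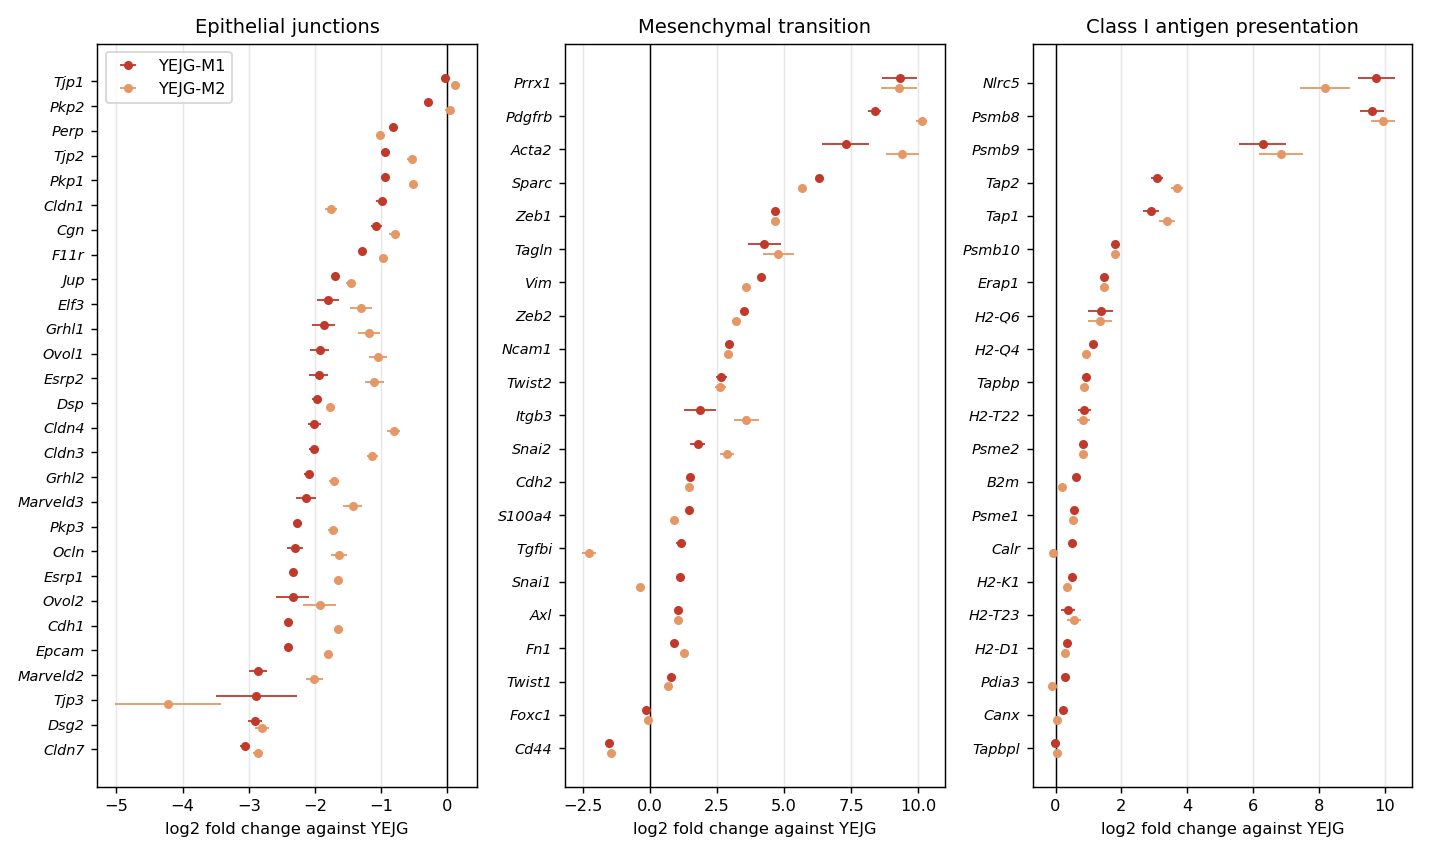
Log2 fold change ± SE against YEJG of every tested gene of 3 lists, in YEJG-M1 (red) and YEJG-M2 (orange); for genes with 0 reads in YEJG (Prrx1, Acta2 and Nlrc5) the plotted value depends on the prior count of the fit. Of the junction genes 26 of 28 lie to the left of 0 in both lines, and of the mesenchymal genes 17 of 21 lie to the right; of the class I genes 16 of 21 passed as higher in both lines.

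Markers of fibroblasts moved with this group. Their summed level was 1.7 to 2.34 CPM in YEJG, 78.3 to 79.6 in YEJG-M1 and 77.9 to 98.6 in YEJG-M2, and all 5 of the 10 markers that could be tested rose. Most of that sum came from the 2 receptors for platelet-derived growth factor, Pdgfrb (above) and Pdgfra, which rose from 1.93, 1.45 and 2.19 CPM to 43.0 ± 2.42 and 9.12 ± 1.2. The chains of type I collagen stayed low. Col1a1 had 0.0521 ± 0.0452 CPM in YEJG, 4.04 ± 0.489 in YEJG-M1 and 1.14 ± 0.175 in YEJG-M2, and Col1a2 had 0.0269 ± 0.0466, 5.03 ± 0.800 and 3.16 ± 0.776. Of the markers that could not be tested, Lum and Thy1 were at 0 reads in all 9 libraries, and Dcn, Postn and Fap stayed below 1 CPM. Whether other cells had a part in the rise of this group was not tested further.

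Most genes that produce, transport and present peptides on MHC class I molecules rose. Of 21 tested genes 16 rose and 0 fell, with medians of 0.877 and 0.841, and 12 rose with counts summed per line. The largest rises were in the immunoproteasome and the transporter. Psmb8, an immunoproteasome subunit at chr17:34416690-34420428 on the plus strand of GRCm39, had a single read over the 3 YEJG libraries. It was read at 32.6, 27.9 and 23.6 CPM in YEJG-M1 and at 34.3, 38.6 and 32.3 CPM in YEJG-M2, a ratio of 1040 (95% counting interval 186 to 41000) and of 1320 (237 to 52200). Psmb9, its partner subunit, had 0, 0.0808 and 0 CPM in YEJG, 2.86 ± 0.928 in YEJG-M1 and 4.11 ± 0.973 in YEJG-M2. The remaining catalytic subunit, Psmb10, was read in YEJG and rose from 15 ± 0.898 CPM to 52.1 ± 3.74 and 52.3 ± 4.53. Tap1 rose from 1.26, 0.727 and 0.529 CPM to 6.21 ± 0.674 and 8.55 ± 0.608 (2.89 ± 0.24 and 3.38 ± 0.24), and Tap2 from 3.78, 2.75 and 1.81 CPM to 23.6 ± 3.08 and 37.4 ± 3.34. Nlrc5, the transactivator of class I genes, had 0 reads in YEJG, 6.30, 7.40 and 9.40 CPM in YEJG-M1 and 2.92, 2.12 and 2.55 in YEJG-M2, at least 97.8-fold and 31.2-fold higher. The class I molecules themselves rose by different amounts. H2-Q4 rose from 13.9 ± 3.09 CPM to 30.5 ± 9.39 and 30 ± 5.28 (1.13 ± 0.09 and 0.93 ± 0.09). H2-Q6 and H2-T22, both at low levels, had log2 fold changes of 1.37 ± 0.38 and 1.34 ± 0.37 and of 0.88 ± 0.19 and 0.84 ± 0.19. H2-D1 had log2 fold changes of 0.35 ± 0.07 and 0.29 ± 0.07, H2-K1 of 0.50 ± 0.06 and 0.35 ± 0.07, and their light chain B2m of 0.63 ± 0.05 and 0.19 ± 0.06. H2 genes resemble each other closely, so reads may be split among them, and with counts summed per line B2m did not pass in YEJG-M2 (adjusted p 0.139), H2-Q6 in YEJG-M1 (0.103) or H2-T22 in either line (0.158 and 0.145).

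Among the chaperones of class I folding and loading, Tapbp (tapasin) rose, with log2 fold changes of 0.93 and 0.87. The others in the list did not pass in both lines. Calr (calreticulin) was higher in YEJG-M1 (0.52 ± 0.05) and not in YEJG-M2 (-0.07 ± 0.06, adjusted p 0.402), and Pdia3 and Canx (calnexin) likewise passed in YEJG-M1 alone (0.30 ± 0.05 and 0.23 ± 0.06). Tapbpl passed in neither line (-0.03 ± 0.10 and 0.04 ± 0.10).

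Interferon response genes rose in part: 18 of 34 tested rose and 3 fell, with medians of 0.619 and 0.67, and 14 rose with counts summed per line. Gbp2, a guanylate-binding protein, rose from 1.26, 1.53 and 2.04 CPM to 16, 16.7 and 15.6 in YEJG-M1 and 12.9, 13.3 and 15.2 in YEJG-M2 (3.30 ± 0.15 and 3.05 ± 0.16). Irf5 rose from 0.351 ± 0.141 CPM to 4.65 ± 0.630 and 3.0 ± 0.415. Irf1, a transcription factor of the interferon-gamma response, rose from 29.2 ± 2.59 CPM to 79.1 ± 3.91 and 90.0 ± 4.75. The list was not of one direction. Isg15, a ubiquitin-like product of type I interferon, fell from 4.62, 5.25 and 3.40 CPM to 1.45 ± 0.478 and 2.80 ± 0.408 (-1.57 ± 0.25 and -0.73 ± 0.23), although with counts summed per line it did not pass in YEJG-M2 (adjusted p 0.0879). Of the 18 genes that rose, 12 had a promoter in the RefSeq table, and 6 of these (50.0%) held AANNGAAA or its reverse complement TTTCNNTT, the core that IRF factors recognise, against 6466 of all 27025 genes (23.9%). Among the class I genes that rose it was 6 of 14 (42.9%). These 6 were B2m, H2-D1, H2-K1, H2-Q4, H2-Q6 and H2-T22. The searched promoters of Psmb8, Psmb9, Psmb10 and Tap1, which rose more, held no match. Nor did those of Erap1, Tapbp, Psme1 and Psme2. Binding was not measured. Gbp2 is shown because its match lies 59 bases before the start (plus strand, chr3:142620413-142620662, GRCm38.p6, match in capitals).
Gbp2: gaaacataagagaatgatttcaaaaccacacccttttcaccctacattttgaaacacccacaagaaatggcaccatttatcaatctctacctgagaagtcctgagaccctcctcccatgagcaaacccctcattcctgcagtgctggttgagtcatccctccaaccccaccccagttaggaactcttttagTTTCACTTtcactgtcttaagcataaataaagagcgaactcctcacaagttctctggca

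Matrix genes moved in both directions: of 31 collagen, laminin and other matrix genes tested 12 rose and 10 fell (9 and 6 with counts summed per line). Col5a1, which nucleates collagen fibrils, rose from 4.62, 7.35 and 5.59 CPM to 110, 125 and 107 in YEJG-M1 and 151, 190 and 172 in YEJG-M2 (4.29 ± 0.09 and 4.78 ± 0.10). Tnc, the matrix protein tenascin-C, fell from 1789, 1586 and 1192 CPM to 151, 139 and 124 in YEJG-M1 and 154, 155 and 121 in YEJG-M2 (-3.46 ± 0.16 and -3.41 ± 0.16). Lamb3, a chain of the basement membrane protein laminin-332, fell from 236 ± 10.1 CPM to 58.9 ± 2.18 and 75.6 ± 3.89. The integrin that binds laminin-332 fell too. Itgb4, the hemidesmosomal beta-4 integrin, fell from 1195, 1118 and 1191 CPM to 209, 194 and 188 in YEJG-M1 and 249, 259 and 233 in YEJG-M2 (-2.57 ± 0.06 and -2.22 ± 0.07), and its partner Itga6 from 799 ± 41.0 CPM to 422 ± 13.1 and 359 ± 9.47. Itgb6, the epithelial integrin that activates TGF-beta, fell from 25.9 ± 1.60 CPM to 7.08 ± 0.472 and 10.7 ± 1.03. In contrast Itgb7, best known from lymphocytes, rose from 7.56, 8.24 and 9.75 CPM to 213, 201 and 195 in YEJG-M1 and 70.9, 76.4 and 85.0 in YEJG-M2, and Itga1, a collagen receptor subunit, from at most 0.168 CPM to 1.05 ± 0.149 and 0.823 ± 0.379. In all, 6 of 16 integrins rose and 7 fell.

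Of 37 matrix proteases and inhibitors 13 rose and 12 fell (8 and 10 with counts summed per line). The rises were led by the aggrecanases Adamts5, from 0.420, 0.485 and 0.453 CPM to 8.62 ± 1.25 and 9.05 ± 0.465, and Adamts9, from 2.52 ± 0.469 CPM to 27.0 ± 1.51 and 13.4 ± 1.83, the latter losing its call in YEJG-M2 with counts summed per line (adjusted p 0.102). The falls were led by Serpinb2, the plasminogen activator inhibitor PAI-2, from 177, 220 and 207 CPM to 25.4 ± 2.24 and 30.8 ± 6.24. Serpinb5 (maspin), a non-inhibitory serpin of mammary epithelium, fell from 217 ± 16.7 CPM to 41.8 ± 5.92 and 47.0 ± 0.349.

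Of 25 tested genes of ErbB receptors, their ligands and feedback 15 fell and 2 rose, with medians of -0.58 and -0.466, and 12 fell with counts summed per line. Among the ligands Epgn (epigen) fell from 26.1, 24.3 and 26.2 CPM to 2.74 ± 0.557 and 5.05 ± 0.581, and Btc (betacellulin) from 22.9 ± 1.78 CPM to 5.24 ± 1.00 and 7.05 ± 0.936. Areg (amphiregulin), the main EGFR ligand of the mammary duct, fell from 283, 292 and 311 CPM to 131, 128 and 108 in YEJG-M1 and 132, 138 and 115 in YEJG-M2 (-1.27 ± 0.09 and -1.20 ± 0.09). Of the receptors, Erbb3 fell from 73.7 ± 5.70 CPM to 22.1 ± 0.589 and 30.2 ± 0.331, Erbb2 from 65.3 ± 2.46 to 37.0 ± 1.2 and 47.9 ± 2.18, and Egfr from 61.7 ± 1.74 to 35.4 ± 1.65 and 46.0 ± 1.89. For each of these 3 receptors YEJG-M2 lay between YEJG and YEJG-M1. The ligands Hbegf, Nrg1 and Nrg2 passed in YEJG-M1 alone, Hbegf as lower (-0.35 ± 0.12) and Nrg1 and Nrg2 as higher (0.45 ± 0.09 and 1.29 ± 0.18). Of the genes that rose, Egf had 0.376 ± 0.374, 1.11 ± 0.359 and 1.19 ± 0.186 CPM, a call lost in limma with a correlation within lines (adjusted p 0.0541 and 0.0616), and Lrig1, a negative regulator of ErbB receptors, changed by 0.25 ± 0.08 and 0.34 ± 0.08, a call lost with counts summed per line (adjusted p 0.419 and 0.198).

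In TGF-beta, activin and BMP signalling 12 of 34 genes rose and 8 fell (8 and 6 with counts summed per line). Tgfbr3 (betaglycan), a co-receptor of TGF-beta, rose from 0.252, 0.162 and 0.453 CPM to 21.8, 20.5 and 21.2 in YEJG-M1 and 19.4, 19.6 and 18.8 in YEJG-M2 (6.13 ± 0.18 and 6.02 ± 0.19). Smad6, an inhibitor of BMP signalling, rose from 0.456 ± 0.215 CPM to 6.67 ± 0.706 and 7.20 ± 1.58. Tgfb1 rose from 3.65 ± 0.505 CPM to 7.96 ± 0.324 and 11.3 ± 0.542. On the activin side, Inhba, which encodes the activin A subunit, fell from 144, 161 and 221 CPM to 73.3 ± 11.5 and 109 ± 9.54, and its antagonist Fst (follistatin) from 168 ± 3.41 CPM to 100 ± 10.9 and 50.6 ± 7.90. In Wnt signalling 5 of 31 genes rose and 10 fell (1 and 6 with counts summed per line), Nkd2 and Fzd3 among the latter. Wnt5a, a ligand of non-canonical Wnt signalling, stood at 0.084, 0.0808 and 0.151 CPM in YEJG, 16.8, 17.1 and 18.8 in YEJG-M1 and 1.18, 1.63 and 0.523 in YEJG-M2 (7.25 ± 0.35 and 3.32 ± 0.62). Most of the Wnt5a rise was in YEJG-M1, and with counts summed per line the call in YEJG-M2 was lost (adjusted p 0.0641). Rnf43, a ligase that removes Frizzled receptors, had 0.378 ± 0.185, 2.22 ± 0.0860 and 1.31 ± 0.104 CPM, with its YEJG-M2 call lost in the same way (adjusted p 0.163).

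Chemokines, cytokines and myeloid growth factors rose more often than they fell, with 13 of 30 higher and 7 lower and medians of 0.624 and 1.04 (0.832 with genes at 0 reads set to their bound). The counts were 7 higher and 7 lower with counts summed per line. Ccl2, a chemoattractant of monocytes, had 0.756, 0 and 0.151 CPM in YEJG, 36.3, 41.8 and 29.3 in YEJG-M1 and 20.3, 19.1 and 14.4 in YEJG-M2 (6.88 ± 0.39 and 5.88 ± 0.44). Ccl9 rose from 1.01, 1.13 and 1.13 CPM to 24.7 ± 2.88 and 19 ± 3.23. Csf1, the growth factor of macrophages, was read in every line and rose from 98.6 ± 6.96 CPM to 564 ± 55.5 and 534 ± 35.3. Il24 and Il1a fell. Il24 went from 180, 184 and 167 CPM to 26.1 ± 1.19 and 35.8 ± 1.96, and the alarmin Il1a from 56.1, 48.5 and 47.5 CPM to 5.37 ± 0.517 and 9.26 ± 0.762.

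Genes of the hypoxia response and glycolysis rose more often than they fell: 18 of 33 tested were higher and 2 lower, with medians of 0.507 and 0.319, and 12 rose with counts summed per line. Egln3, an oxygen-sensing prolyl hydroxylase that is itself induced by HIF, rose from 0.252, 0.323 and 0.453 CPM to 15.5, 16.7 and 12.8 in YEJG-M1 and 10.3, 10.7 and 9.35 in YEJG-M2 (5.39 ± 0.22 and 4.79 ± 0.24). Car12, a membrane carbonic anhydrase, rose from 0.316 ± 0.119 CPM to 16.2 ± 1.35 and 21.5 ± 3.15, and Bnip3, a mitophagy receptor, from 9.20 ± 0.571 CPM to 74.4 ± 6.93 and 41.4 ± 2.93. Eno2, an enolase, rose from 0.0532 ± 0.0463 CPM to 3.41 ± 0.285 and 1.63 ± 0.115 (5.77 ± 0.40 and 4.67 ± 0.48). The abundant glycolytic enzyme Ldha rose from 1885, 1729 and 1808 CPM to 2720 ± 251 and 2470 ± 198 (0.59 ± 0.08 and 0.47 ± 0.08). Not every target followed. Hk2 (hexokinase 2) fell from 152 ± 2.72 CPM to 94.4 ± 11.5 and 113 ± 10.8, Slc2a1 (GLUT1) had log2 fold changes of 0.03 ± 0.13 and -0.10 ± 0.14, and Vegfa of -0.26 ± 0.10 and -0.35 ± 0.10. Ndrg1 fell by 0.45 ± 0.08 and 0.26 ± 0.08, a call lost with counts summed per line (adjusted p 0.0574 and 0.374). All 18 genes that rose had a promoter in the RefSeq table. Of these, 10 (55.6%) held ACGTG or its reverse complement CACGT, the core of the hypoxia response element, against 4998 of all 27025 genes (18.5%). Both forms overlap where CACGTG occurs. The 27025 genes were not limited to those tested for expression, and the list members that did not rise were not searched. Binding was not measured. Egln3 is shown as the member described first above (minus strand, chr12:54203875-54204124, GRCm38.p6, match in capitals 229 bases before the start).
Egln3: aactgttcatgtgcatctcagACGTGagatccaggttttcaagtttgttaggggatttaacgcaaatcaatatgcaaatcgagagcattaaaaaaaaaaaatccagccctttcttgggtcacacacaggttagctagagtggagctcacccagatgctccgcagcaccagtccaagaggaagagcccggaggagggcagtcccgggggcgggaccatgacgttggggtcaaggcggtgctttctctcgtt

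Among NRF2 targets and glutathione genes 14 of 31 rose and 5 fell, and 7 rose with counts summed per line. Besides Nqo1, Gstm1, a glutathione transferase, rose from 0.168, 0.242 and 0.605 CPM to 15, 14.4 and 18 in YEJG-M1 and 5.36, 5.99 and 7.06 in YEJG-M2 (5.48 ± 0.28 and 4.13 ± 0.33). Aldh3a1, an aldehyde dehydrogenase, rose from 28 ± 8.59 CPM to 362 ± 21.8 and 302 ± 32.4 (3.69 ± 0.17 and 3.47 ± 0.17). Gstt1 rose from 0.108 ± 0.052 CPM to 1.93 ± 0.225 and 1.55 ± 0.358, and Mgst2 from 1.94 ± 0.306 CPM to 16.2 ± 0.817 and 12 ± 1.75, the latter losing its call in YEJG-M2 with counts summed per line (adjusted p 0.055). Hmox1 rose from 34.0 ± 0.988 CPM to 58.9 ± 1.03 and 49.0 ± 4.45, and Txnrd1 fell from 515 ± 25.1 CPM to 407 ± 7.24 and 420 ± 9.59. Tkt, an enzyme of the pentose phosphate pathway, fell from 524 ± 20.5 CPM to 296 ± 26.4 and 292 ± 18.6. Gsr, glutathione reductase, fell from 252 ± 9.95 CPM to 182 ± 11.8 and 190 ± 13.3, a call lost with counts summed per line (adjusted p 0.0863 and 0.182). The core of the antioxidant response element is TGACNNNGC or its reverse complement GCNNNGTCA. Of the 12 promoters at hand 3 (25%) held it, against 3112 of all 27025 genes (11.5%). These 3 belong to Gclm, Mgst1 and Nfe2l2. The promoters of Nqo1, Gstm1, Gstt1 and Mgst2, whose values are given, held no match. Binding was not measured.

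Genes of lipid synthesis fell more often than they rose, with 17 of 37 genes of cholesterol and fatty acid synthesis lower and 4 higher and medians of -0.33 and -0.138. The fit with counts summed per line called 8 lower and 2 higher. Fasn, fatty acid synthase, fell from 2257, 2101 and 2129 CPM to 996 ± 64.0 and 1310 ± 95.5. Elovl7, a fatty acid elongase, fell from 63.2 ± 4.29 CPM to 18.3 ± 2.71 and 25.1 ± 1.46. Fdps, a synthase of the mevalonate pathway, showed the mark of the run: YEJG replicates 1 and 3 (run A) had 50.0 and 43.4 CPM and replicate 2 (run B) 24.1, and with the run in the fit it fell by 0.92 ± 0.11 and 0.75 ± 0.12. The desaturases Scd1 and Fads1 were higher, while Scd2 had log2 fold changes of -0.06 ± 0.12 and -0.03 ± 0.13. Scd1 rose from 4.96, 2.59 and 2.80 CPM to 41.0, 39.1 and 40.8 in YEJG-M1 and 46.8, 46.1 and 46.3 in YEJG-M2 (3.56 ± 0.15 and 3.79 ± 0.16), and Fads1 from 9.42 ± 1.59 CPM to 67.0 ± 5.08 and 61.0 ± 4.61.

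Uridine salvage is the pathway around which the study was built. Upp1, uridine phosphorylase 1, which splits uridine into uracil and ribose 1-phosphate, stood at 21.5, 22.3 and 22 CPM in YEJG, 32.4, 30.4 and 26.1 in YEJG-M1 and 21.9, 22.5 and 19.9 in YEJG-M2. It was higher in YEJG-M1 (0.43 ± 0.09, adjusted p 0.00286) and did not pass in YEJG-M2 (-0.04 ± 0.10, adjusted p 0.794), and the lung lines differed (adjusted p 0.00858). With counts summed per line the YEJG-M1 difference did not pass (adjusted p 0.293). Upp2 was low in every library, at 0.717 ± 0.273, 1.28 ± 0.490 and 0.888 ± 0.432 CPM, and did not pass in either line. Of the 9 tested genes of the pathway 1 rose and 2 fell. Slc29a1, the nucleoside transporter ENT1 that carries uridine across the membrane, rose from 58.7, 52.8 and 47.3 CPM to 200 ± 17 and 191 ± 9.58 (1.92 ± 0.09 and 1.84 ± 0.09). Uck2, the kinase that salvages uridine to UMP, fell from 501 ± 36.0 CPM to 314 ± 31.4 and 369 ± 36.1, and Tk1, thymidine kinase, from 296 ± 19.1 CPM to 175 ± 16.2 and 184 ± 19.4.

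Proliferation genes changed little, with 3 of 40 tested genes of mitosis and DNA replication higher (7.5%) and 5 lower (12.5%). Both shares lay below the 18.3% and 15.7% of all genes in the main fit. With counts summed per line 6 rose and 4 fell, where 1466 and 1419 of all genes did, so the lower share is that of the main fit only. Top2a rose from 609, 743 and 898 CPM to 1090 ± 139 and 1050 ± 117 (0.54 ± 0.14 and 0.46 ± 0.14) and Gins2 from 24.0 ± 1.44 CPM to 32.3 ± 1.32 and 33.2 ± 1.93. Birc5 (survivin) fell from 335 ± 2.56 CPM to 199 ± 3.03 and 219 ± 6.20 and Mybl2 from 131 ± 9.09 CPM to 85.2 ± 8.51 and 96.6 ± 8.63. Mki67 varied from 325 to 580 CPM within YEJG, and its differences of 0.28 ± 0.24 and 0.44 ± 0.26 did not pass. Of 28 p53 targets and cell cycle inhibitors 12 fell and 4 rose (8 and 3 with counts summed per line). The BH3-only gene Pmaip1 (Noxa) fell from 11.7, 12.2 and 14 CPM to 1.06 ± 0.527 and 2.68 ± 0.177, and the death receptor Tnfrsf10b from 57.0 ± 8.10 CPM to 32.0 ± 6.25 and 30.2 ± 3.06. Another death receptor, Fas, rose from 1.09, 1.29 and 1.89 CPM to 6.93 ± 0.189 and 9.07 ± 0.812, as did the stress gene Sesn1, from 5.17 ± 0.355 CPM to 20.4 ± 2.27 and 14.9 ± 1.02.

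Of 13 tested genes of the mammary lineages 4 rose and 6 fell (2 and 3 with counts summed per line). Besides Krt14, Sox9, a factor of luminal progenitors, fell from 74.0 ± 6.54 CPM to 30.8 ± 1.08 and 27.4 ± 0.645. Stat5a, which drives alveolar differentiation, rose from 6.06 ± 0.522 CPM to 12.2 ± 0.815 and 10.0 ± 0.798. Among 9 tested imprinted genes 3 rose and 4 fell (1 and 4 with counts summed per line). Snrpn fell from 23.4, 17 and 18.7 CPM to 1.47 ± 0.252 and 3.09 ± 0.538. The neighbours Peg10 and Sgce showed another pattern, at 0 to 0.084 CPM in YEJG, 0.441 ± 0.210 and 0.324 ± 0.183 in YEJG-M1 and 5.16 ± 0.278 and 3.32 ± 0.194 in YEJG-M2. Peg10 was at least 5.43-fold and 64.4-fold higher than in YEJG, and with counts summed per line neither gene passed in YEJG-M1 (adjusted p 0.0639 and 0.122). Only 2 of 39 Hox genes reached the level for testing. Hoxa5 rose from at most 0.0756 CPM to 1.31 ± 0.398 and 1.26 ± 0.0486, and with counts summed per line it did not pass (adjusted p 0.0581 and 0.0766).

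YEJG-M1 and YEJG-M2 were compared directly to see how alike they were. Between them 1622 genes (12.1%) passed, 745 higher in YEJG-M2 (5.56%) and 877 lower (6.55%). Of the 4558 shared genes, 1000 (21.9%) also differed between the lung lines. Among the named genes the widest gap was that of Wnt5a, described above. Pdgfra was higher in YEJG-M1 and Pdgfrb in YEJG-M2, and Itgb7 stood at 203 ± 9.22 CPM in YEJG-M1 and 77.4 ± 7.09 in YEJG-M2 (adjusted p 3.86e-06 between the lines). The counts of this contrast moved most with the handling of the libraries: with counts summed per line 123 genes were called.

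YEJG-FP, the fat-pad line, lay between YEJG and the lung lines for several of the genes described. Values in this and the next paragraph were normalised over all 45 libraries. Cdh1 stood at 257 CPM in YEJG-FP and Epcam at 344, and Vim at 781 and Zeb1 at 18.9, each between the levels of YEJG and the lung lines. Others were already near the lung-line level, as in Nqo1 at 103 CPM, Car12 at 23.1 and Scd1 at 53.5. Ccl2 stood at 21.1 CPM in YEJG-FP, against 35.1 in YEJG-M1 and 17.7 in YEJG-M2. Adamts5, at 11.5 CPM in YEJG-FP, was above both lung lines (8.46 and 8.92). Angpt1, at 16 CPM, was below both (34.2 and 21.2) and far above YEJG (0.18). Hexa, at 0.196 CPM, and Prune2, at 1.30 CPM, were close to YEJG. Cldn7 was lower in YEJG-FP than in either lung line, at 4.18 CPM. The mean of both lung lines differed from YEJG-FP in 5819 of 14339 genes (40.6%), with 2940 higher (20.5%) and 2879 lower (20.1%). Of the mesenchymal list 17 of 21 genes were higher in the lung lines than in YEJG-FP, and of the junction list 25 of 28 were lower.

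**Figure D4:**
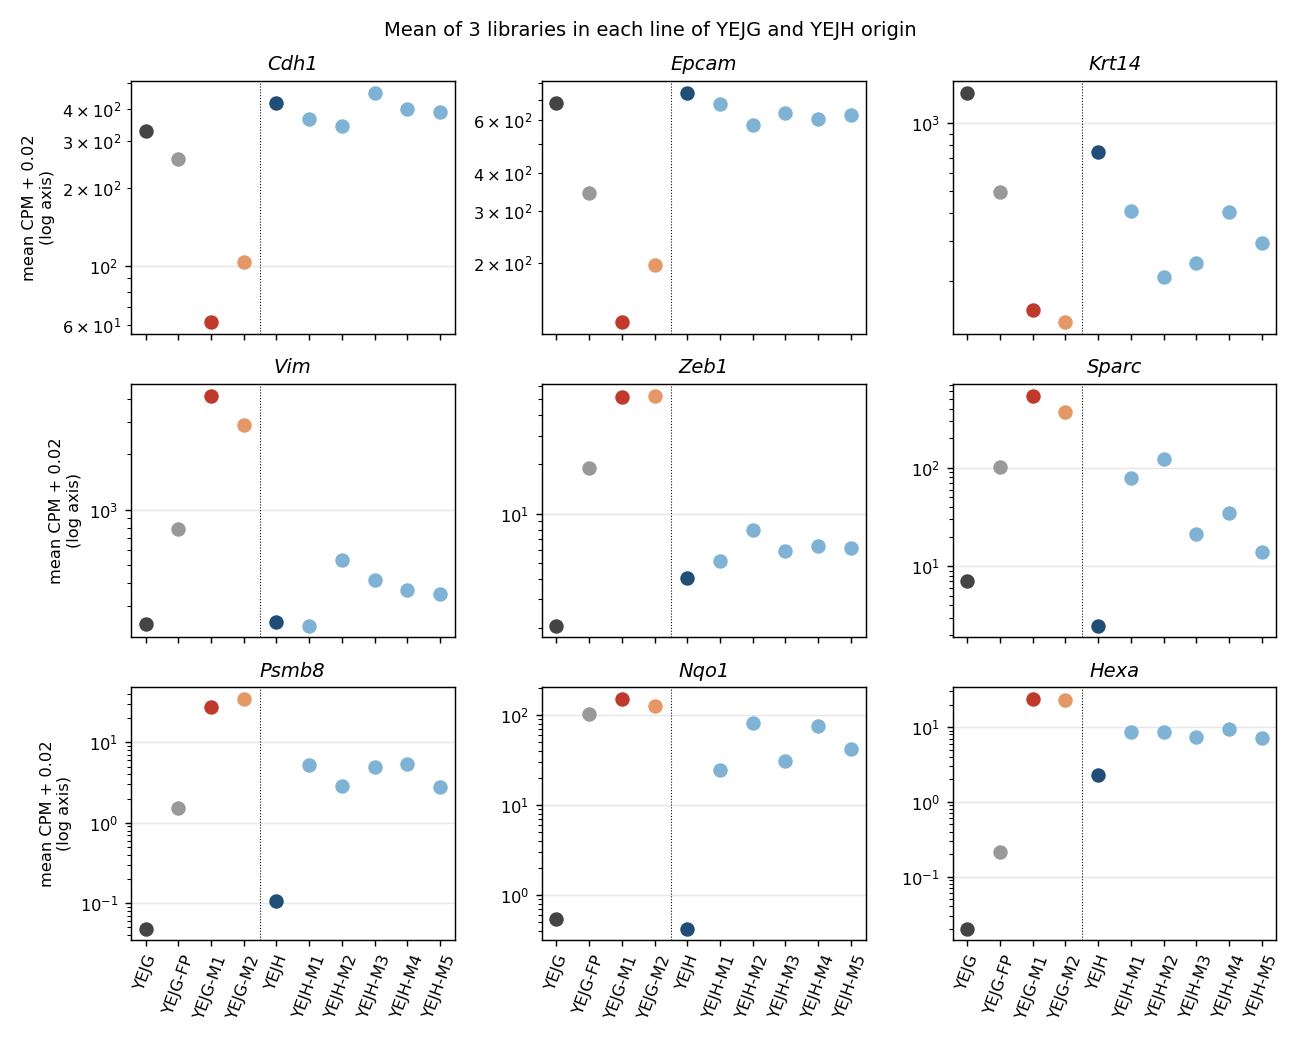
Mean level of 3 libraries (CPM plus 0.02, log axis) in YEJG, YEJG-FP, YEJG-M1 and YEJG-M2 and, right of the dotted line, in YEJH and its 5 lung lines, for 9 genes described in the text. Vim and Zeb1 are highest and Cdh1 and Epcam lowest in the 2 YEJG lung lines, whereas Nqo1 and Sparc are higher than in the parental line in the lung lines of both origins.

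The change in the YEJG lung lines was set against that in the 5 YEJH lung lines, each relative to its own parental line. The difference between the changes passed the test in 5006 of 14339 genes (34.9%), in 2495 upwards (17.4%) and 2511 downwards (17.5%), and in 2549 with counts summed per line. In YEJH itself 3408 genes (23.8%) passed, 1504 higher (10.5%) and 1904 lower (13.3%). In the junction list 27 of 28 genes had a more negative change in YEJG, while in YEJH 11 fell and 3 rose. Cdh1 was at 420 CPM in YEJH and between 343 and 461 in its lung lines (difference between the changes -1.96, adjusted p 2.51e-20), and Epcam at 743 and between 578 and 679 (-1.87, adjusted p 1.25e-22). Of the mesenchymal list 15 of 21 genes had a more positive change in YEJG. Vim was at 244 CPM in YEJH and between 234 and 534 in its lung lines, and Zeb1 at 4.03 and between 5.10 and 7.94. The class I list had 17 of 21 genes with a more positive change in YEJG, 7 that rose in YEJH and 0 that fell there.

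Lipid synthesis separated the origins by direction. In YEJH 29 of 37 genes of cholesterol and fatty acid synthesis rose and 1 fell, and the difference between the changes was negative for 29. Fdps, which fell in the YEJG lung lines, was at 29.4 CPM in YEJH and between 42.3 and 60.4 in its lung lines (difference -1.51, adjusted p 6.1e-08). Some of the genes with the largest changes moved in both origins. Nqo1 was at 0.403 CPM in YEJH and between 24.5 and 82.1 in its lung lines, and the difference between the changes did not pass (1.34, adjusted p 0.204). Car12 was at 1.13 CPM in YEJH and between 18 and 34.1 in its lung lines. The fat-pad lines of YEJH lay in the same range for Car12, at 19.7 to 29.7 CPM. Psmb8 was at 0.0857 CPM in YEJH and between 2.77 and 5.34 in its lung lines, and Sparc at 2.47 and between 13.8 and 124, each with a larger change in YEJG (differences 4.54 and 1.99, adjusted p 0.00755 and 5.35e-11). Both differences lost their call with counts summed per line (adjusted p 0.15 and 0.605).

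**Figure D5:**
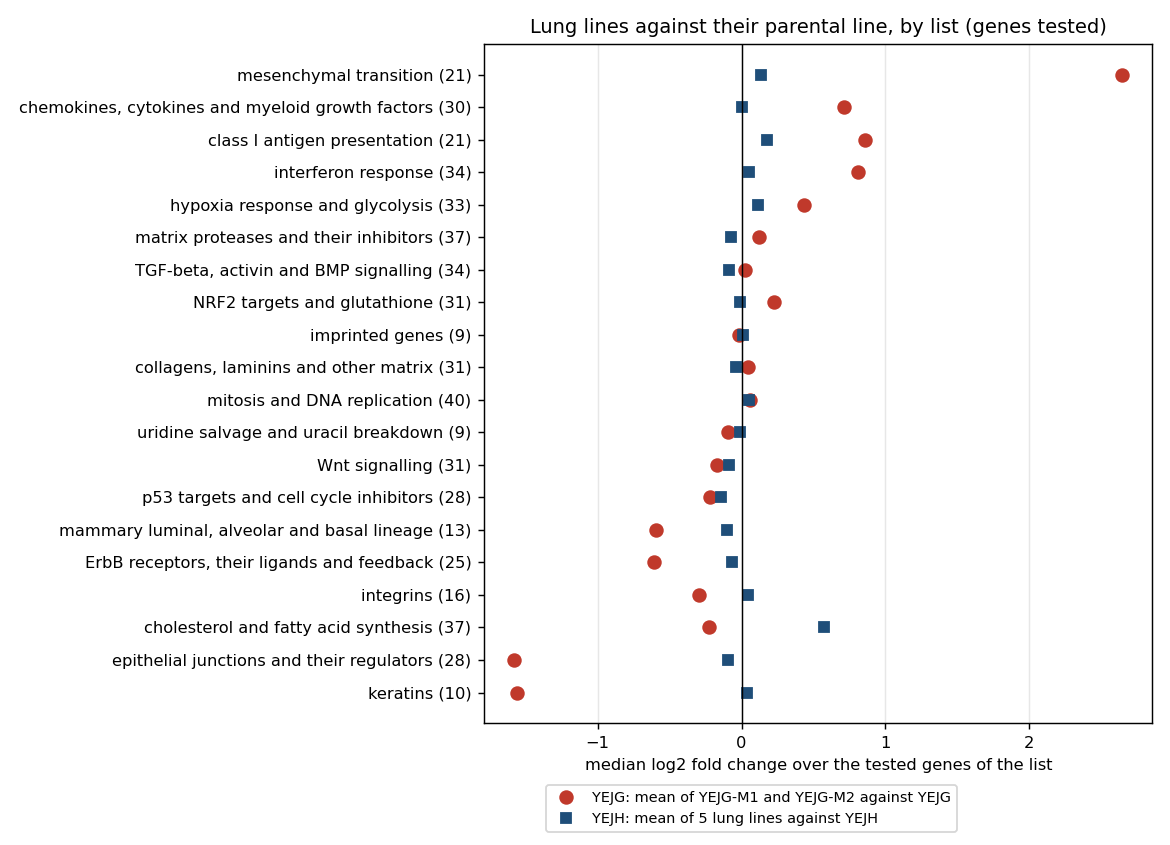
Median log2 fold change over the tested genes of each list (number in brackets) for the mean of YEJG-M1 and YEJG-M2 against YEJG (red circles) and for the mean of the 5 YEJH lung lines against YEJH (blue squares). The mesenchymal median is 2.64 in YEJG and 0.133 in YEJH, the epithelial junction median -1.58 and -0.097, and the cholesterol and fatty acid median -0.229 and 0.571.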

How the data were processed

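RNA of cultured cells was prepared with TRIzol. The labels name polyA RNA, the TruSeq RNA Library Prep kit in its v2 form, whose chemistry does not mark strand, and sequencing on a NextSeq500. What the authors deposited is 1 table of unnormalised whole-number read counts by gene and library, and the values entered the tests unaltered. The submitters' processing notes name FastQC, HISAT2, SAMtools 1.2 and HTSeq, and a human build, GRCh38, although the identifiers are those of mouse genes. Of 54838 identifiers, 50764 (92.6%) matched GENCODE vM39 (GRCm39), which gave names and positions. The 5 rows that name no gene (31.6% to 43.3% of the reads of a library across the series) and 0 columns without a sample were left out. Among these rows, that of low-quality reads held 822828 to 1372504 reads in the run A libraries and 0 in every run B library. Low-quality reads were thus counted apart in run A alone. Whether this bears on gene counts, or on run differences such as that of Fdps, was not tested. Near-identical and overlapping genes share reads and are uncertain, among them Klk6, Krt6a and H2 genes, and 1 or more annotated genes overlap many of the genes named, Hexa and Psmb8 included.

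Counts were filtered with filterByExpr, scaled by TMM and tested with edgeR 4.0.16 (R 4.3.3; quasi-likelihood, Benjamini-Hochberg adjustment over all genes, threshold 0.05), with line and library run as terms, on the 9 libraries. Comparisons with YEJG-FP and YEJH were fitted on all 45 libraries. Library pairs of a line differed beyond counting noise (chi-square per degree of freedom 7.91 to 24.1). CPM were computed with TMM factors, and fold bounds against a line without reads used 3 reads over its 3 libraries, which cover counting error only. The members and lists were chosen with earlier results of these data known. Genes were named where the groups did not overlap, as the 12 largest rises and falls and the 2 largest in each direction per list, with Upp1 and Upp2. A few genes that this rule or the lists hold are not reported here, though they count in the list totals. Other list members were picked after their values were seen. Alternatives used DESeq2 1.42.0, limma 3.58.1 and counts summed per line, where a lone line was assumed to vary like the YEJH-derived lines. Whether replicate numbers pair the libraries was not settled, and they did not enter the main fits. Promoters came from RefSeq (GRCm38.p6). Scripts were tested on simulated data. Figures were drawn with matplotlib 3.10.9 (Python 3.11.15).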

Additional observations from a re-analysis of the deposited data

Results flagged for a closer look

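The change from the parental line to the lung lines differed between YEJG and YEJH in 5006 of 14339 genes, by a test of the difference itself (edgeR quasi-likelihood, 45 libraries, adjusted p under 0.05), and in 77 of the 92 genes chosen by the naming rule. The values in brackets, for 75 of them, are log2 differences, the YEJG change minus the YEJH change. The 92 genes were chosen for large changes in YEJG, so a difference in the direction of the YEJG change is given by the choice of genes. In all 77 the difference had the same sign as the YEJG change. With counts summed per line 56 of the 77 passed, and Acan, Adamts5, Adamts9, Car12, Ccl2, Ccl9, Chst1, Col5a1, Ddr2, Epgn, Fzd3, Glipr1, Gsr, Itgb7, Ndrg1, Nlrc5, Pdgfrb, Pmaip1, Psmb8, Sparc and Uggt2 did not. In 7 of them (Fdps, Gsr, Il1a, Itgb6, Mest, Prune2 and Smad6) the YEJH lung lines were called in the opposite direction. Each library group holds 3 libraries, too few for a check of single outlying libraries.

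Of the genes with the largest changes, positive differences were found for Angpt1 (6.29), Chst1 (7.01), Ddr2 (4.74), Glipr1 (2.77), Gsdmd (7.29), Hexa (9.55), Prune2 (9.66), Tspan15 (8.99) and Zcchc24 (8.84). Negative ones were found for Acan (-6.42), Eomes (-7.55), Klk6 (-3.97), Mest (-8.40), Nkd2 (-5.86), Fzd3 (-3.99), Obsl1 (-5.70), Ptprz1 (-5.83) and Uggt2 (-2.57). In junctions and keratins they were Cldn7 (-2.80), Dsg2 (-2.92), Krt14 (-1.99) and Krt6a (-3.72). In the mesenchymal list they were Pdgfrb (9.06), Sparc (1.99) and Cd44 (-1.47). In matrix genes, integrins and proteases they were Col1a2 (5.64), Col5a1 (2.17), Lamb3 (-1.81), Tnc (-3.49), Itga1 (3.66), Itgb7 (2.74), Itgb4 (-1.97), Itgb6 (-1.84), Adamts5 (1.81), Adamts9 (0.96), Serpinb2 (-3.18) and Serpinb5 (-2.18). Class I and interferon genes gave Nlrc5 (4.53), Psmb8 (4.54), Gbp2 (3.04) and Irf5 (2.95). Chemokines and cytokines gave Ccl2 (5.09), Ccl9 (3.46), Il1a (-3.38) and Il24 (-2.20). Growth factor, TGF-beta and activin signalling gave Areg (-0.82), Btc (-1.52), Epgn (-1.83), Fst (-1.46), Inhba (-1.07), Smad6 (5.28) and Tgfbr3 (4.71). Metabolic genes gave Car12 (1.47), Egln3 (4.35), Hk2 (-0.73), Ndrg1 (-0.48), Gstm1 (5.20), Gsr (-0.65), Tkt (-0.95), Elovl7 (-1.52), Fads1 (1.72), Fdps (-1.51), Scd1 (1.89), Slc29a1 (0.96) and Tk1 (-0.50). Cell cycle and p53 genes gave Birc5 (-0.62), Gins2 (0.54), Mybl2 (-0.57), Fas (2.36), Pmaip1 (-2.12), Sesn1 (1.70) and Tnfrsf10b (-0.79). Lineage and imprinted genes gave Sox9 (-1.38), Stat5a (0.95) and Snrpn (-2.65). The other 15 chosen genes, Nqo1 and Upp1 among them, gave no difference that passed.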

How the results depend on the processing

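Over 22 alternative settings the 92 genes of the naming rule gave 4048 values, of which 3961 kept direction and side of the threshold, 87 no longer passed and 0 changed sign. With counts summed per line 2885 genes were shared, 3377 passed in YEJG-M2, 2549 for YEJG against YEJH, 3217 for the lung lines against YEJG-FP and 123 for YEJG-M2 against YEJG-M1. With limma and an estimated correlation between libraries of a line (0.159) 3554 genes were shared and 700 passed between the lung lines. In run A alone 2100 genes were shared, 4089 passed in YEJG-M1, 2298 in YEJG-M2, 3792 in their mean (6426 with both runs, 48.0%), 2490 between the origins and 240 between the lung lines, and in run B alone 4265, 2103 and 927 passed in YEJG-M1, between the origins and between the lung lines, with fewer libraries in each fit. With at least 2-fold required, 1615 genes were shared, and 2178, 1828 and 1987 passed in YEJG-M1, YEJG-M2 and their mean. Leaving out 1 library at a time gave 3397 to 4646 shared genes, 4443 to 4978 between the origins, 5338 to 6570 in YEJG-M1, 3736 to 5447 in YEJG-M2, 4900 to 6703 in their mean and 698 (without YEJG-M1 replicate 2; 703 without YEJG-M2 replicate 1) to 1661 between the lung lines. Without YEJG-M1 replicate 1, whose library name differs from its title, 4646 were shared. Same-numbered libraries correlated between -0.425 and 0.868 in their deviations from the line mean, with the negative values in pairs of different runs. Within a run, same-numbered libraries correlated at 0.669 to 0.868 and other pairs at 0.36 to 0.732. With line and run removed, the mean was 0.0189 for same-numbered libraries and -0.00931 for others. Whether the replicate numbers pair the libraries was therefore not settled. A replicate block in place of the run gave 5179 shared genes, and with the run 5094. RLE factors lowered the share of higher genes among those shared from 53.9% to 50.5%. The cause of these shifts was not tested. Depth limits genes near 1 CPM, and 1 parental line and 2 lung lines limit what can be said of other lines.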

Other observations

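Foxj1, the master factor of motile cilia and the sole marker of lung epithelium that could be tested, was chosen after its values were seen. It stood at 21.9 ± 5.77 CPM in YEJG, 1.59 ± 0.667 in YEJG-M1 and 15.1 ± 1.17 in YEJG-M2 (log2 fold changes -3.81 ± 0.27 and -0.56 ± 0.21), and the lung lines differed (edgeR adjusted p 3.89e-05).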
